A study of Homo sapiens with 2 samples.

Results

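The unfolded protein response (UPR) and ATF4 genes were followed after THOC2 knockdown in melanoma cells. A set of 40 genes was taken, of 34757 gene symbols on the array, and every probe carrying one of these symbols in the deposited annotation was used. The set held 14 chaperones and folding enzymes of the endoplasmic reticulum (ER), 4 genes of ER-associated degradation, 7 ER stress sensors and membrane-bound transcription factors, 9 regulators of the integrated stress response, and 6 enzymes of amino acid and one-carbon synthesis. The rule for the set uses gene symbols of known function and no measured value, although it was drawn up with earlier results of these arrays known. CREB3L1, already known to be low on 1 of the arrays, was set beside its relatives.

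When unfolded proteins build up in the ER, the membrane sensors ERN1 (IRE1), EIF2AK3 (PERK) and ATF6 are activated. ERN1 splices XBP1 mRNA, EIF2AK3 phosphorylates the translation factor eIF2 alpha, which favours translation of ATF4, and ATF6 is cut in the Golgi to free its transcription factor part. Spliced XBP1 and ATF6 raise chaperones and degradation genes, while ATF4 raises amino acid enzymes, DDIT3 (CHOP), TRIB3 and CHAC1. CREB3L1 (OASIS), CREB3 and CREB3L2 are held in the ER membrane and freed by proteolysis in the same way as ATF6. Much of this control acts on protein or on splicing, and the array measured RNA level only.

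The A375 line derives from a human melanoma, and THOC2 is the largest subunit of the THO complex, which takes part in the export of mRNA from the nucleus. A375 cells received THOC2 siRNA or NC, a control siRNA, and RNA taken 48 h after transfection was hybridised to 1 one-colour Agilent array of 60-base probes per siRNA. With 1 array per siRNA, replicate error could not be measured and no test was possible, and each difference below compares 1 array with the other. The methods list several THOC2 siRNAs, the one used on the array is not named, and the title and description of each sample name a different siRNA from its source field; the title and description were followed.

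The THOC2 probes bear on the labels. The brighter one (chrX:122734486-122734545, hg19, minus strand) had a processed signal, the spot intensity after background subtraction, of 136 with NC against 40.9 with THOC2 siRNA. The other (chrX:122747960-122748019, minus strand) had 67.3 with NC and 35.1 with THOC2 siRNA. On the log2 scale, after subtracting the 75th percentile of each array, the differences were -1.42 and -0.63. THOC2 was thus lower on the array labelled THOC2 siRNA by both probes. The 75th percentile lay 0.31 lower on that array, so an equal raw signal on both arrays appears as a positive difference.

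The melanoma label was checked with 12 lineage genes, of which 9 had a measured probe, meaning one that the scanner software marked as well above background on either array. SOX10, MITF, VIM, AXL and NGFR were measured on both arrays, while PMEL, TYR and TYRP1 were measured on neither and MLANA only with THOC2 siRNA. Of the markers of other cell types, 1 of 5 keratinocyte or epithelial genes, 2 of 5 fibroblast genes and 3 of 5 leukocyte genes (CD68 was not matched on the array) had a measured probe. Their summed signals were 95.7, 252 and 76.7 with NC and 131, 276 and 91.3 with THOC2 siRNA, against 85834 and 68967 for the melanoma genes. VIM (54790 and 46363) and AXL (23189 and 16034) made up most of the melanoma sums, so the comparison of sums does not measure purity. Single markers differed by 1.5-fold or more: the fibroblast gene DCN went from 62.4 to 149 (log2 fold change 1.56), KRT14 from 83.9 to 104 at its brighter probe (0.62), CD3E from 25.3 to 37.4 (0.87), DCT from 18.0 to 24.4 (0.75) and S100B from 199 to 102 (-0.66). A dimmer KRT14 probe and MLANA were measured with THOC2 siRNA only, at 26.9 and 18.7. The part of these signals in the values below was not tested.

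Many UPR genes share a short promoter motif, and these are shown because they tie part of the set together by sequence, independently of the array. The ER stress response element, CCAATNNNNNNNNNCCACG, binds NF-Y at its first letters and ATF6 or XBP1 at its last. It was searched on both strands in the RefSeq promoters of GRCh38.p14, each running from 250 bases before to 50 bases after the start of the gene. It was present in 27 of 35116 promoters (0.0769%) and in those of 6 members, of the 36 with an entry in the table. PDIA3, SHMT2, NUPR1 and PSPH had no entry. In the lines that follow, capitals mark the fixed letters of each motif in the orientation of the gene, so that a motif on the opposite strand reads CGTGG before ATTGG.
HSPA5, chr9:125241373-125241483, minus strand: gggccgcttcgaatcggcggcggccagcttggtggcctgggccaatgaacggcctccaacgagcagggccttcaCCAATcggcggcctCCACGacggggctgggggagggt
HSP90B1, chr12:103930206-103930349, plus strand: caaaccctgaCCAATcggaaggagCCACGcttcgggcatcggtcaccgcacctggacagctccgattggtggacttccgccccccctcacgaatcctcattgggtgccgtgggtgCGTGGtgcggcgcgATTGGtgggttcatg
CANX, chr5:179698768-179698806, plus strand: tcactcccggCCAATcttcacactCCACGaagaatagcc
CALR, chr19:12938374-12938412, plus strand: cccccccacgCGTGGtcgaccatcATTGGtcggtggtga
CRELD2, chr22:49918544-49918582, plus strand: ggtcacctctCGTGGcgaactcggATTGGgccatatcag
XBP1, chr22:28800593-28800631, minus strand: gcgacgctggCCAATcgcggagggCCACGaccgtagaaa

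Element II, ATTGGNCCACG, is the compact form of this motif and was present in 19 promoters (0.0541%), of which 3 were members. HERPUD1 held 1 copy, SDF2L1 held 1 and HYOU1 held 2. The letters TGACGTGG, a core bound by XBP1 and ATF6, were in 256 promoters (0.729%) and among the members only in HYOU1, where they overlapped the first copy of element II. The C/EBP-ATF element TGATGCAA, which ATF4 binds with a C/EBP partner, was in 304 promoters (0.866%), among them CHAC1 and HERPUD1. The looser TGATGNAA was in 1270 promoters (3.62%) and added ASNS to these. Both forms overlap by construction.
HERPUD1, chr16:56931956-56932045, plus strand: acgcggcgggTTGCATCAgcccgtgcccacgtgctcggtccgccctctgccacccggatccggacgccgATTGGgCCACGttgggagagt
SDF2L1, chr22:21642104-21642134, plus strand: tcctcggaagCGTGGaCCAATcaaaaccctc
HYOU1, chr11:119057264-119057403, minus strand: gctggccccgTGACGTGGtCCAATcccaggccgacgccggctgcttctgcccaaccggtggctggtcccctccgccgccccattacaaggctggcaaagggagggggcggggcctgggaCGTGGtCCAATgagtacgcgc
CHAC1, chr15:40953252-40953279, plus strand: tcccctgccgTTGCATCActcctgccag
ASNS, chr7:97872459-97872486, minus strand: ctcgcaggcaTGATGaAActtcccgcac

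All 40 genes were measured. They had 49 probes, of which 47 were measured on both arrays; the other 2, second probes of DNAJC3 and SEL1L, were below background on both. One probe, that of CREB3L1, was lower by 2-fold or more with THOC2 siRNA, and no member probe was higher by that much. Of all 25345 probes measured on at least 1 array, 3.33% were lower and 2.93% higher at the same fold. Among the 22207 measured on both, these shares were 0.365% and 0.829%. At 1.5-fold the count for the members was still 1 lower (CREB3L1) and 0 higher of 47 probes, beside 7.68% and 6.14% of probes measured on at least 1 array, and 2.94% and 3.84% of those measured on both. CREB3L1 was known to be low when the set was drawn up, so these counts are a description.

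The median log2 fold change over the 40 genes was -0.00064, with 20 genes above 0 and 20 below, beside a median of 0.02 over 17514 genes. Of those 17514 genes, 46.6% lay below 0. The quartiles of the members were -0.12 and 0.11, beside -0.18 and 0.20 for all genes, and the 4 members farthest from 0 (CREB3L1, HSPA5, DDIT3 and CANX) were each lower with THOC2 siRNA. CANX, at -0.34, owes its place to a dim probe. Its brighter probe was at -0.21, nearer to 0 than PHGDH (0.30) and CALR (0.29), which were higher with THOC2 siRNA. The members were mostly bright, with 36 of 47 probes above a mean log2 signal of 8, and bright probes varied less. For 7982 genes of that brightness the SD of the log2 fold change was 0.22. Repeated spots of 1 probe gave a technical SD of the log2 fold change of 0.06 above a log2 signal of 8, 0.11 between 6 and 8, and 0.29 between 4 and 6. The last of these rests on 6 probes only.

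**Figure D1:**
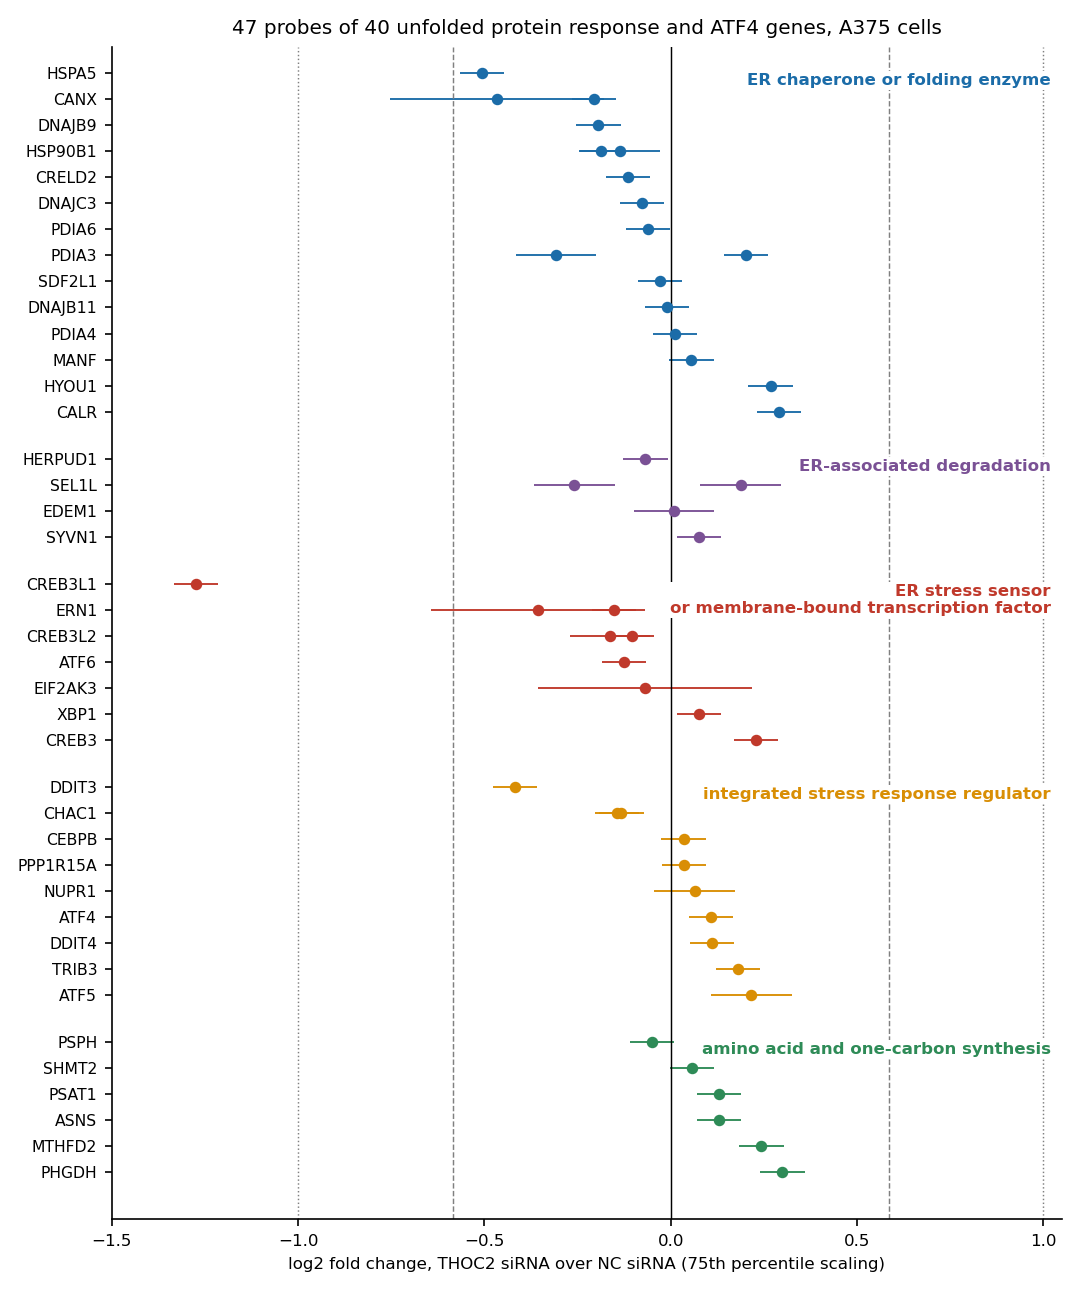
Log2 fold change of each member probe (THOC2 siRNA over NC, x axis), with 1 row per gene and colours for the 5 roles; points are probes, bars are the technical SD at that signal, dashed lines mark 1.5-fold and dotted lines 2-fold. CREB3L1 lies at -1.27, past both lines, and every other probe lies between the 1.5-fold lines.

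The scaling mattered for small differences. Bright genes lay slightly above 0 after scaling on the 75th percentile, with a median of 0.06 over those 7982. Quantile normalization changed the members by -0.16 to 0.00 (median -0.06). With it, 28 of the 40 genes were below 0, beside 51.9% of all genes. Each probe was therefore also set beside the probes whose mean log2 signal lay within 0.5 of its own. By this measure 32 of 47 member probes lay below the median of probes of like signal and 15 above it. All but 3 lay between the 5th and 95th percentile of such probes, and those 3, CREB3L1, HSPA5 and DDIT3, were in the lowest 5%. By construction about 5% of probes of like signal lie there, so 3 of 47 is near the share of any probes.

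**Figure D2:**
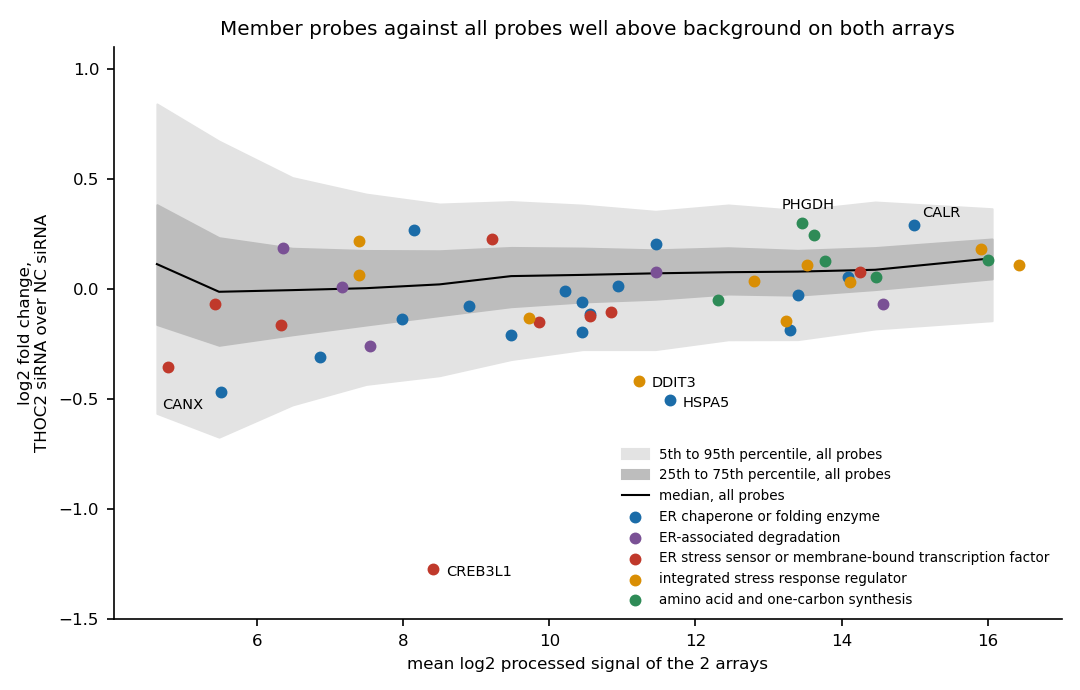
Log2 fold change (y axis) against the mean log2 processed signal of both arrays (x axis) for the 47 member probes, coloured by role, over bands of the 5th to 95th and the 25th to 75th percentile and the median (line) of the 22207 probes measured on both arrays. CREB3L1 (-1.27), HSPA5 (-0.51) and DDIT3 (-0.42) lie below the outer band.

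Among the sensors and membrane-bound factors, CREB3L1 stood apart. CREB3L1 is an ER membrane transcription factor known for raising collagen and secretory pathway genes in bone and for regulating growth of some tumour cells. Its 1 probe (chr11:46342759-46342818, hg19, plus strand), which begins ttcgcccctcccttgttttatattttatga, measured 588 with NC and 196 with THOC2 siRNA. The log2 fold change was -1.27, a 2.42-fold lower level, with a technical SD of 0.06. Of 22207 probes measured on both arrays 31 were lower by more, and of 2629 probes of like signal 3 were. CREB3L1 was singled out with its low value on these arrays known, so these ranks describe it and test nothing. Under the 10 processing alternatives the log2 fold change of CREB3L1 ran from -1.30 to -1.15, and it was past 2-fold in each. Alternatives that change only the filter, the dim signals or the choice of probe cannot move a gene with 1 probe measured on both arrays. The authors' values nearly repeat quantile normalization, at -1.30 in both. The 207 probes in its part of the slide had a median of 0.03, and 2.42% of them were lower by 2-fold. The value rests on 1 probe on 1 array per siRNA.

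The relatives of CREB3L1 differed far less between the arrays. CREB3, also known as Luman, gave 614 with NC and 580 with THOC2 siRNA (chr9:35733444-35735126, plus strand), a log2 fold change of 0.23. The probe of CREB3 begins gaggggcttattctgcctgagacacttcct. CREB3L2 (BBF2H7), a regulator of the secretory pathway in cartilage, had 2 probes. The brighter (chr7:137559882-137559941, minus strand, beginning cagcagtgtttaaatctaaatacgttgtga) went from 2113 to 1586 (log2 fold change -0.10). The dimmer (chr7:137597823-137600640, minus strand, beginning cacagccatctccaccccgttggaaaagga) went from 94.6 to 68.1 (log2 fold change -0.16). Both CREB3L2 probes were thus slightly lower on the THOC2 siRNA array.

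The relatives outside the set were measured in the same way. CREB3L4 had signals of 725 and 544 at one probe and 213 and 200 at the other (NC, then THOC2 siRNA), with log2 fold changes of -0.11 and 0.22, so its probes disagreed in sign. CREB3L3, a factor of liver and intestine, was measured on neither array. ATF6B, the paralog of ATF6, went from 385 to 371 (log2 fold change 0.26). Counting ATF6, the measured probes of the relatives lay between -0.16 and 0.26, beside -1.27 for CREB3L1.

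**Figure D3:**
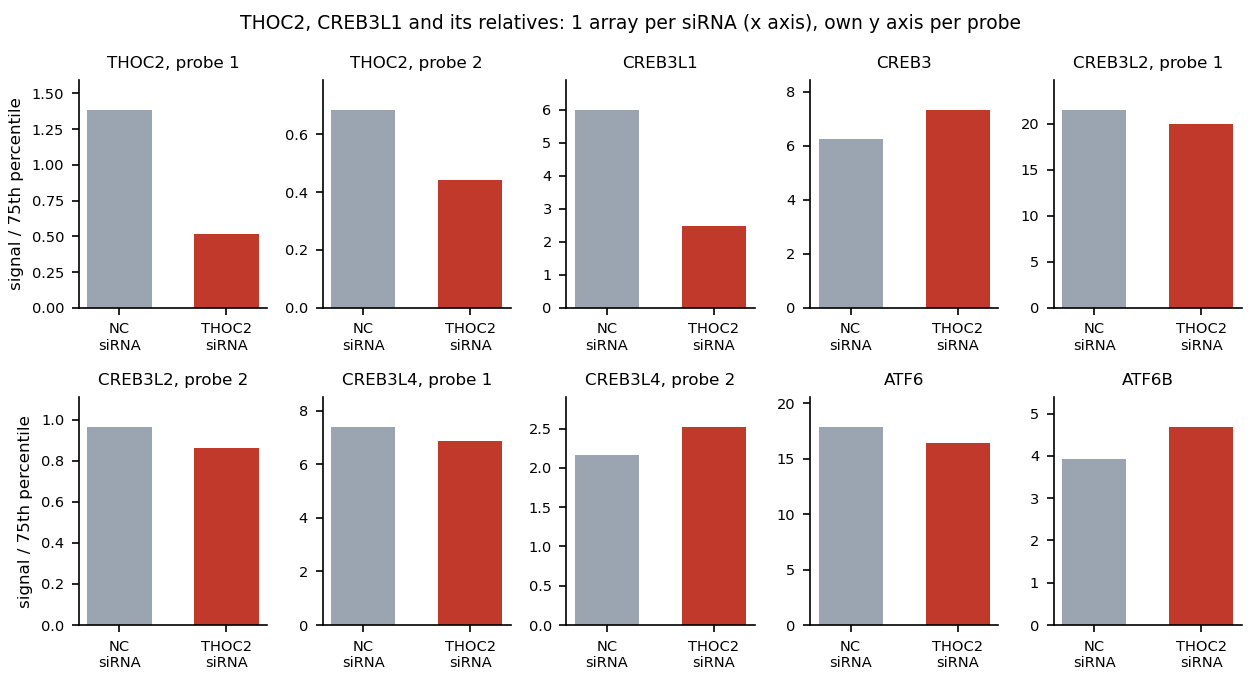
Processed signal divided by the 75th percentile of its array (y axis, own scale in each panel) with NC and THOC2 siRNA (x axis) for the probes of THOC2, CREB3L1 and the relatives measured; each bar is 1 array. The THOC2 siRNA bar of CREB3L1 stands at 2.48, under that of NC, while the bars of CREB3 go from 6.26 to 7.33.

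The 3 classical sensors differed little. ATF6 went from 1755 with NC to 1298 with THOC2 siRNA (log2 fold change -0.12), with a technical SD of 0.06. ERN1, the kinase and nuclease that splices XBP1 mRNA, had 1085 and 788 at its brighter probe, a log2 fold change of -0.15, and 34.7 and 21.9 at its dimmer one, a log2 fold change of -0.36 with a technical SD of 0.29. EIF2AK3, the kinase of eIF2 alpha, was dim, at 48.7 and 37.5, with a log2 fold change of -0.07. This is inside the technical SD of 0.29, which itself rests on 6 probes. All 4 of these probes lay below the median of probes of like signal.

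XBP1, whose spliced form is the main factor downstream of ERN1, was printed on 10 spots. On the NC array they ran from 20573 to 21858 with a median of 21212, and on the THOC2 siRNA array from 16742 to 18737 with a median of 18161. The log2 fold change was 0.08 ± 0.05 (SD over 10 spot pairs, technical) and above 0 in 9 of the 10. It turned to between -0.05 and -0.02 with quantile normalization, lowess centring, normexp background correction and the authors' normalized values. The probe annotation does not tell spliced from unspliced XBP1 mRNA. Over the 7 sensors and membrane-bound factors the median was -0.12, and 8 of 9 probes lay below the median of probes of like signal, CREB3 being the exception.

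The chaperones and folding enzymes of the ER lumen were led by HSPA5. HSPA5 (BiP), the main ER chaperone and the classical readout of the UPR, went from 4284 with NC to 2433 with THOC2 siRNA (chr9:127997149-127997208, hg19, minus strand; the probe begins ctctcactaccgtggaccacctagtctgta). The log2 fold change was -0.51, a 1.42-fold lower level with a technical SD of 0.06. It was lower than 98.6% of the 1184 probes of like signal, and ran from -0.62 with normexp background correction to -0.47 with block centring. The 212 probes of its part of the slide had a median of -0.03. HSPA5 was below 1.5-fold in the main values and past it, at -0.62, with normexp background correction only.

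HSP90B1 (GRP94), an ER chaperone of the HSP90 family, had signals of 11928 and 8448 at one probe and 296 and 217 at the other, with log2 fold changes of -0.19 and -0.14. CANX (calnexin), a membrane lectin chaperone, had 852 and 596 at its brighter probe and 59.3 and 34.6 at its dimmer one, with log2 fold changes of -0.21 and -0.47 and technical SDs of 0.06 and 0.29. The soluble counterpart of CANX, the calcium-binding lectin chaperone CALR (calreticulin), lay on the other side. CALR went from 32768 to 32330 (log2 fold change 0.29), with a range of 0.14, with block centring, to 0.29. HYOU1, the exchange factor of HSPA5, went from 289 to 280 (log2 fold change 0.27). CALR and HYOU1 stayed above 0 and HSPA5, HSP90B1 and CANX below 0 in all 10 alternatives.

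Among the co-chaperones, DNAJB9 (ERdj4), a textbook target of XBP1, had signals of 1665 and 1174 and a log2 fold change of -0.19. DNAJC3 (P58IPK) had a log2 fold change of -0.08 at its measured probe, and DNAJB11 (ERdj3) of -0.01. SDF2L1 and CRELD2, both small secretory pathway proteins that rise in ER stress, had log2 fold changes of -0.03 and -0.12, and MANF, a secreted factor of the ER stress response, had 0.06. The protein disulfide isomerases PDIA4 and PDIA6 had 0.01 and -0.06. The 2 probes of PDIA3 disagreed: the brighter went from 2931 to 2720 (log2 fold change 0.20), and the dimmer from 144 to 93.9, a log2 fold change of -0.31, each beyond its technical SD of 0.06 and 0.11. Over the 14 genes the median was -0.06, and 14 of 17 probes lay below the median of probes of like signal, the exceptions being CALR, HYOU1 and the brighter PDIA3 probe.

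The ER-associated degradation genes, which bring misfolded proteins back to the cytosol, were close to 0. HERPUD1, a ubiquitin-like ER membrane protein, had signals of 27673 and 21293 and a log2 fold change of -0.07. The ubiquitin ligase SYVN1 (HRD1) had 3046 and 2591 and a log2 fold change of 0.08. Its partner SEL1L had 226 and 153 at one probe and 85.6 and 78.6 at another, with log2 fold changes of -0.26 and 0.19, so no direction can be given for SEL1L. EDEM1, which extracts misfolded glycoproteins from folding, had a log2 fold change of 0.01. The median of the 4 genes was -0.01, and 0.04 with no detection filter, which adds a SEL1L probe below background.

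In the ATF4 branch, ATF4 and most of the integrated stress response genes grouped with it lay near 0 and DDIT3 was lower. ATF4 went from 94541 with NC to 82202 with THOC2 siRNA (log2 fold change 0.11), and this turned to between -0.05 and -0.02 with quantile normalization, lowess centring, normexp background correction and the authors' values. DDIT3 (CHOP), the transcription factor that ATF4 raises and that favours cell death in long ER stress, had 3075 with NC and 1857 with THOC2 siRNA (chr12:57911200-57911526, minus strand; the probe begins ggaagtgtatcttcatacatcaccacacct). Its log2 fold change was -0.42, a 1.34-fold lower level with a technical SD of 0.06, and ran from -0.53 to -0.42. It was lower than 97.9% of 1397 probes of like signal. In the part of the slide that holds the DDIT3 probe the 213 probes had a median of 0.02, and block centring gave -0.44 for DDIT3. Of these 213 probes 10.3% were lower by 2-fold, a larger share than the 3.33% of all probes. Beyond this centring, their part in the DDIT3 value was not tested.

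The other genes of this group were within 0.22 of 0. TRIB3, a pseudokinase that restrains ATF4, went from 64302 to 58807 (log2 fold change 0.18). CHAC1, which degrades glutathione, had 11274 and 8232 at one probe and 981 and 722 at the other, with log2 fold changes of -0.14 and -0.13 that agreed. ATF5, a relative of ATF4, had 173 and 162 and a log2 fold change of 0.22. PPP1R15A (GADD34), the phosphatase subunit that reverses eIF2 alpha phosphorylation, had 0.03, and NUPR1, a small stress-induced nuclear protein, had 0.06.

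Of these regulators, CEBPB and DDIT4 were printed on 10 spots per array. CEBPB, a partner of ATF4 on DNA, ran from 18982 to 20333 with NC (median 19363) and from 14692 to 16994 with THOC2 siRNA (median 16093). Its log2 fold change was 0.03 ± 0.05 (SD over 10 spot pairs). It turned to between -0.07 and -0.06 with quantile normalization, lowess centring, normexp background correction and the authors' values. DDIT4 (REDD1), an inhibitor of mTORC1 signalling, ran from 12511 to 12838 with NC (median 12617), and its 9 unflagged spots with THOC2 siRNA ran from 10789 to 11358 (median 10985). Its log2 fold change was 0.11 ± 0.02 (SD over 9 spot pairs), above 0 in all 9. It was 0.03 with quantile normalization and with the authors' values, 0.02 with lowess centring and -0.01 with normexp background correction. All spot pairs share 1 scaling, so their common sign does not bear on the scaling. Spots of 1 probe share their RNA, so these SDs are technical. Over the 9 genes the median was 0.06, but it turned to between -0.03 and -0.02 with quantile normalization, lowess centring, normexp background correction and the authors' normalized values.

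Of the 6 amino acid and one-carbon enzymes, which ATF4 raises, 5 lay above 0 and 1 below. Over all genes, 9354 of 17514 lay above 0. Probes this bright had medians above 0 under this scaling, such as 0.07 at the signal of PHGDH and 0.12 at that of ASNS. PHGDH, the first enzyme of serine synthesis, went from 11336 to 11255 (log2 fold change 0.30). MTHFD2, an enzyme of mitochondrial one-carbon metabolism, ran over its 9 unflagged NC spots from 12462 to 13560 (median 12937) and over its 10 THOC2 siRNA spots from 11704 to 13123 (median 12336). Its log2 fold change was 0.23 ± 0.05 (SD over 9 spot pairs), above 0 in all 9. ASNS, asparagine synthetase, had 70276 and 62040 and a log2 fold change of 0.13, which lay between -0.01 and 0.00 with quantile normalization, lowess centring, normexp background correction and the authors' values.

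PSAT1 and PSPH carry out the later steps of serine synthesis and SHMT2 turns serine into glycine in mitochondria. Their log2 fold changes were 0.13, -0.05 and 0.06. SHMT2 turned below 0 in some alternatives, among them quantile normalization (-0.02) and lowess centring (-0.05). PHGDH and PSPH, which act in 1 pathway, lay on opposite sides of 0 in all alternatives. Each has 1 probe measured on both arrays, so the filter, dim-signal and brightest-probe alternatives could not change this. The median over the 6 enzymes was 0.13 and ran from 0.01 with normexp background correction to 0.13, and 4 of 6 probes lay above the median of probes of like signal.

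**Figure D4:**
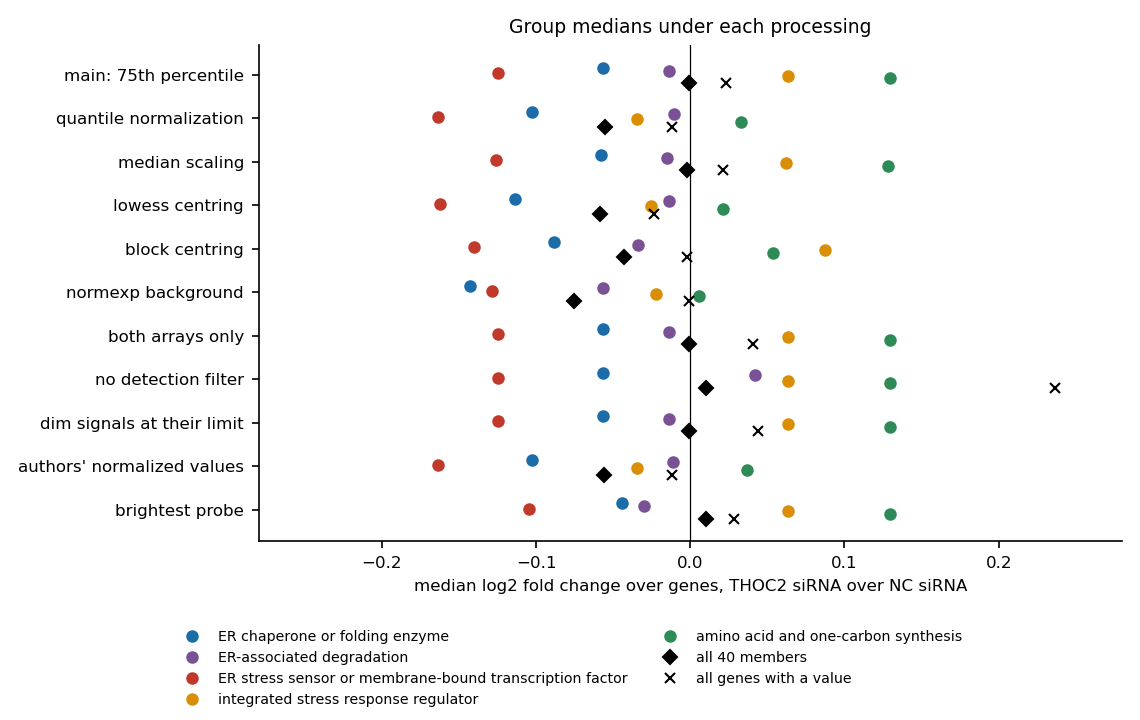
Median log2 fold change over the genes of each role (coloured circles), over all 40 members (diamonds) and over all genes with a value (crosses), x axis, under the main processing and 10 alternatives, y axis. The sensors and chaperones stayed below 0 and the synthesis enzymes above 0 under every processing, while the integrated stress response regulators changed sign and the ER-associated degradation genes did so with no detection filter (0.04).

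The 9 members whose promoters hold the ER stress response element or element II lay on both sides of 0. Their median log2 fold change was -0.07, with 6 below 0 and 3 above. The 27 member genes with a promoter entry and neither element had a median of 0.01, with 12 below 0 and 15 above. HSPA5, HSP90B1, CANX, CRELD2, HERPUD1 and SDF2L1 were below 0, and CALR, HYOU1 and XBP1 above. The genes with the lowest and with the highest value of this group, HSPA5 (-0.51) and CALR (0.29), both hold the 19-base element shown in the sequence lines. CREB3L1 had a promoter entry that held none of the motifs searched, which says only that these letters are not in that window. These counts are a description of letters and of 2 arrays.

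**Figure D5:**
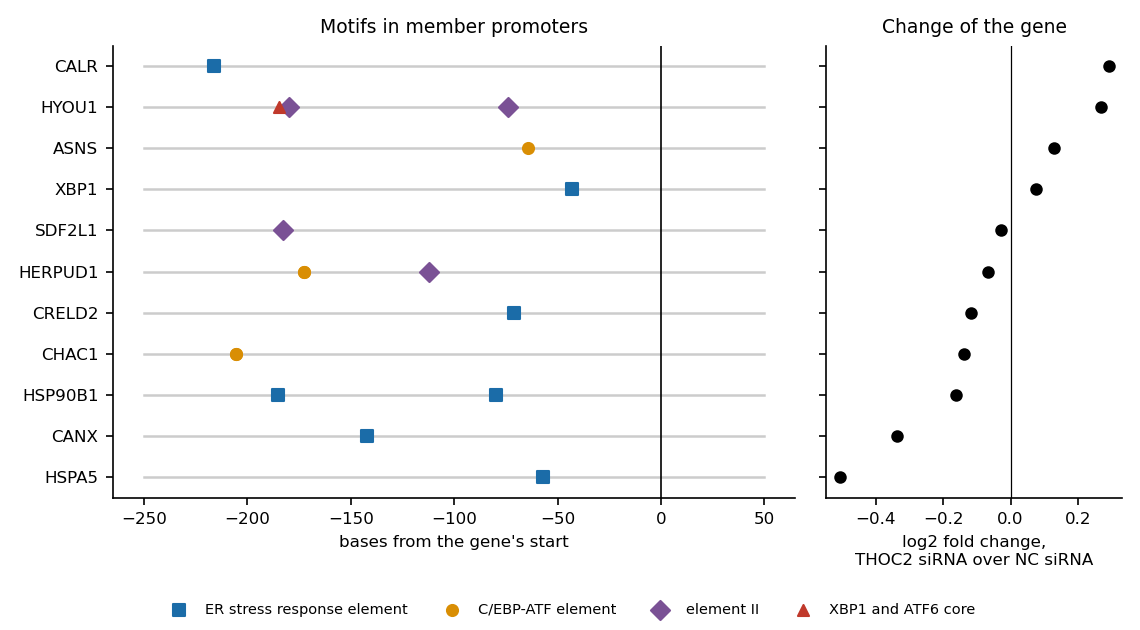
Left, position of each motif in bases from the start of the gene (x axis) for the 11 members with any motif, where the C/EBP-ATF marker of ASNS is the looser form; right, log2 fold change of the same gene (x axis). Genes are ordered by log2 fold change, from HSPA5 at -0.51 to CALR at 0.29, and squares, the ER stress response element, occur at both ends.

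Further genes of the same pathways were taken from a list chosen by function. Of 36 other UPR genes, 34 had a value, with a median log2 fold change of -0.05, 15 above 0 and 19 below. Of their 45 probes measured on both arrays, 1 was past 1.5-fold, and also past 2-fold, on the lower side and 0 on the higher. It belonged to TXNDC11, a thioredoxin-domain ER protein, at 77.4 with NC and 28.5 with THOC2 siRNA, a log2 fold change of -1.13. The other and far brighter TXNDC11 probe had 1138 and 1013, a log2 fold change of 0.14, so the TXNDC11 probes disagreed in sign. One TRAM1 probe, annotated on the plus strand, had 15.9 with NC and was not well above background with THOC2 siRNA, where the limit was 15.9, so that no fold can be given for it. The brighter probe of TRAM1, a translocon protein, annotated on the minus strand, had 2238 and 1582, a log2 fold change of -0.19. SEC62 and BHLHA15 were well above background on neither array.

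Of 26 other ATF4 and integrated stress response genes, 25 had a value, with a median of 0.04, 15 above 0 and 10 below. Of their 33 probes, 2 were past 1.5-fold on the lower side and 0 on the higher, and none reached 2-fold. The 2 probes were of STC2 (243 and 125, log2 fold change -0.65), a secreted glycoprotein raised by ATF4, and of KLHL24 (96.2 and 50.1, log2 fold change -0.63), both named after their values were seen. FGF21 was well above background on neither array. All 33 probes were measured on both arrays, so the share to read beside these 2, and beside the 1 in 45 of the other list, is the 2.94% of all probes measured on both that were lower at this fold.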

How the data were processed

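A375 RNA was measured on 2 one-colour Agilent arrays, 1 for NC and 1 for THOC2 siRNA, on 1 slide. The authors deposited the scanner output of Feature Extraction 10.7.1.1, in which the processed signal is an intensity after background subtraction and spatial trend correction. The authors also deposited normalized log2 values, whose sorted values on the 2 arrays differ by at most 0.000788, as quantile normalization gives. Their comparison table, which holds fold changes and gene annotation, was not used. Student's t-test at 2-fold, named in the methods, needs replicates and was left out.

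Control spots and spots with outlier flags (147 and 168) were dropped, none was saturated, and repeated spots of 1 probe were averaged as log2 values. The 75th percentile of each array (6.62 and 6.31) was subtracted. Of 58199 probes, 42.3% were well above background with NC and 39.4% with THOC2 siRNA. Probes with this mark on either array were compared, and a gene is the mean of its probes. The number of arrays limits the precision. The technical SD is the median over 300 probes with repeated spots, by signal. Of these, 244 lay above a log2 signal of 8, 36 between 6 and 8, 6 between 4 and 6, and 14 under 4.

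Alternatives were quantile normalization, scaling on the median, lowess centring (span 0.3), centring in blocks of the slide (16 down, 8 across), normexp (offset 50), only probes measured on both arrays, all probes with no filter, dim signals raised to the detection limit of the array, the authors' values, and the brightest probe. The members, roles, motifs and further lists were chosen with earlier results of these data known. Signals are given for THOC2, CREB3L1 and its relatives, 9 textbook readouts, the 3 genes with the largest difference in each role and any member probe past 1.5-fold. Older symbols were matched through the RefSeq table, which with the promoters is on GRCh38.p14; probe positions are hg19 as deposited. Whether probes lie in coding or untranslated parts was not analysed here. The fold change step was run on simulated arrays with large known changes and little noise, and the motif search on short made-up sequences. These runs check the code only and do not show how well small differences are found. Python 3.11.15, numpy 2.4.6, pandas 2.3.3, statsmodels 0.14.6, R 4.3.3 and limma 3.58.1 were used.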

Additional observations from a re-analysis of the deposited data

How the results depend on the processing

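No paired analysis was possible because each siRNA has 1 array. No value called at 2-fold changed sign. The filter, dim-signal and brightest-probe alternatives cannot change a gene whose 1 probe was measured on both arrays, so such values count as unmoved by construction. A group median or gene was called moved when it changed by more than the technical SD. A count was called moved when it changed by more than 1.5-fold. Among the group medians, the counts, CREB3L1 and THOC2, the values given next moved, and the cause was not tested. With normexp background correction the log2 fold change of CREB3L1 was -1.15 and that of THOC2 -0.51, and the median was -0.076 over the 40 genes and -0.14 over the chaperones. THOC2 was -1.42 by its brightest probe. The median of the integrated stress response regulators was -0.034 with quantile normalization, -0.034 with the authors' values, -0.025 with lowess centring and -0.023 with normexp. The median of the synthesis enzymes was 0.033 with quantile normalization, 0.021 with lowess centring, 0.054 with block centring, 0.0057 with normexp and 0.037 with the normalized values of the authors. With normexp (HSPA5 added) and with no detection filter (a DNAJC3 probe below background added) 2 probes were lower by 1.5-fold or more. The other 100 values of these comparisons stayed within these limits. Of 180 values of 18 single genes, 51 moved by more than the technical SD. Among them were HSPA5 (-0.62), DDIT3 (-0.53), DNAJB9 (-0.31) and HERPUD1 (-0.20) with normexp. Relative to the main values, 11 members turned below 0 with normexp, 8 with quantile normalization, 7 with lowess centring, 7 with the authors' values and 4 with block centring; with no detection filter the median of all genes was 0.24. Over all probes, calls ran from 33 lower and 79 higher with normexp to 1928 and 3127 with no detection filter.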
